A study of Mus musculus with 28 samples.

Results

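This comparison sets the transcripts of mouse CD4+ T cells after 4 h with interleukin-2 (IL-2) against those of CD4+ T cells after 4 h with interleukin-21 (IL-21). It rests on 2 RNA-seq libraries of the 28 samples in the series, taken by their labels, 1 library for each cytokine. The series holds 9 RNA libraries in all: the other 7 are a control without cytokine and 1 library for each cytokine at 0.5, 2 and 24 h, and the 19 chromatin libraries were not used here. The cells of all 9 RNA libraries came from the spleen of wild-type C57BL/6 mice, with no age given in the sources used here. Before any cytokine, and in the control as well, the cells spent 3 days on plate-bound anti-CD3 (2 µg/ml) with anti-CD28 (1 µg/ml) and were then rested overnight, so every group is of T cells already activated through the antigen receptor. The labels give cytokine doses for the chromatin cultures only, and do not say how many mice or cultures gave a library. With 1 library a side no difference has a replicate check, and all differences below are sizes without p-values.

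IL-2 and IL-21 are both made by T cells and both bind receptors that contain the common gamma chain, which signals through the kinases JAK1 and JAK3. IL-2 acts mainly through the transcription factor STAT5 and is known for driving growth, survival and effector or regulatory functions of activated T cells. IL-21 acts mainly through STAT3 and is known for its part in follicular helper T cells, in help to B cells and in cytotoxic responses. The series as a whole concerns genes strongly induced by IL-2, the gene of the IL-2 receptor alpha chain among them, and the comparison of these libraries bears on how such genes differ between IL-2 and a cytokine of the same receptor family.

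Levels are given in RPKM, reads scaled to the length of the transcript in kilobases and to the size of the library. The library totals were 40.4 M reads with IL-2 and 39.1 M with IL-21, so a single read on a 1 kb transcript adds 0.0247 RPKM in the former and 0.0256 RPKM in the latter. A difference is log2(RPKM + 1) with IL-2 minus the same with IL-21, so a positive value means a higher level with IL-2, and the added 1 RPKM understates changes of low genes. It was taken for the 11043 genes that reached 1 RPKM in at least 1 of the 9 libraries. A ratio of RPKM values carries a 95% interval for the counting of reads alone. In bulk RNA, fewer cells of a type and less RNA per cell cannot be told apart.

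After 4 h the cytokines had parted in 430 genes (3.89% of those tested) while the median gene stood level. With IL-2, 246 genes were at least 2-fold higher than with IL-21, which is 2.23% of the genes tested, and 184 were at least 2-fold lower, which is 1.67%. The median difference over all genes was -0.00027, with the 5th percentile at -0.64 and the 95th at 0.78. A difference of 4-fold or more was seen for 25 genes higher with IL-2 and for 17 lower. For 3 genes, all higher with IL-2, it reached 8-fold: Lta, Lif and Akr1c18. For every one of the 430 counted genes a ratio of 1 lay outside the counting interval, which a 2-fold rule all but guarantees at this depth: the better covered of the 2 libraries held a median of 2468.5 reads for a higher gene and of 2019 for a lower one.

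**Figure D1:**
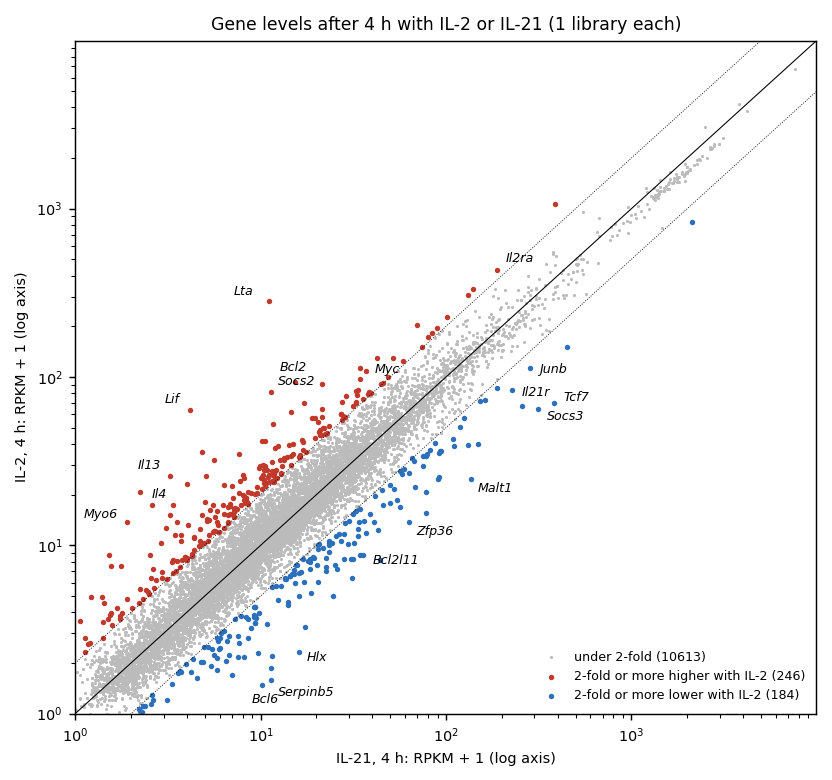
Level of each of the 11043 genes tested with IL-21 for 4 h (x axis) and IL-2 for 4 h (y axis), both as RPKM + 1 on log axes, 1 library each. The solid line marks equal levels and the dotted lines 2-fold; 246 red points lie above the upper dotted line, with Lta farthest out, and 184 blue points lie below the lower one.

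The control was set beside the genes counted on each side. For each gene a gap of at least 2-fold between the cytokines was fixed by the choice of genes, so what is described here is where the control lay. For the 246 genes higher with IL-2, the median level was 20.2 RPKM with IL-2, 7.07 RPKM with IL-21 and 7.21 RPKM in the control, and their median difference from the control was 1.31 with IL-2 and -0.01 with IL-21. For the 184 genes lower with IL-2, the median level was 6.33 RPKM with IL-2, 17.6 RPKM with IL-21 and 12.9 RPKM in the control, and the median difference from the control was -0.78 with IL-2 and 0.59 with IL-21. Genes higher with IL-2 thus stood, in the median, at control level in the IL-21 library, while the genes lower with IL-2 lay on both sides of the control. Both differences from the control use the same control library. The labels give no time of culture for that control, so culture time and cytokine cannot be told apart in these differences.

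The genes with the largest positive differences, Lta and Lif, both encode cytokines. Lta (NM_010735, minus strand of chromosome 17) encodes lymphotoxin alpha, a cytokine of the tumour necrosis factor family. Its level was 22.4 RPKM in the control, 194, 257, 283 and 130 RPKM after 0.5, 2, 4 and 24 h of IL-2, and 47.3, 15.0, 10.1 and 7.41 RPKM after the same times of IL-21. The IL-2 libraries were thus all above the control, and from 2 h the IL-21 libraries were all below it. The difference at 4 h, 4.67, was the largest of the genes tested, and the ratio was 27.9 (counting interval 25.6 to 30.4). Lif (NM_001039537, plus strand of chromosome 11) encodes leukemia inhibitory factor, a cytokine of the IL-6 family. Its level was 2.48 RPKM in the control, between 53.2 and 78.2 RPKM in the 4 IL-2 libraries, and 17.5, 5.42, 3.17 and 3.20 RPKM in the IL-21 libraries in order of time. At 4 h the difference was 3.93 and the ratio 19.7 (18.0 to 21.7).

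The survival gene and the feedback inhibitor among the 20 largest differences followed a slower course than Lta and Lif. Bcl2 (NM_009741, minus strand of chromosome 1) encodes the founding anti-apoptotic protein of its family. Its level was 18.9 RPKM in the control, 24.6, 67.9, 92.9 and 93.2 RPKM with IL-2 in order of time, and 20.7, 27.8, 14.4 and 30.2 RPKM with IL-21. The ratio at 4 h was 6.45 (6.24 to 6.67) and the difference, 2.61, was larger than at 2 h (1.26) and 24 h (1.59). Socs2 (NM_001168657, minus strand of chromosome 10), a suppressor of cytokine signalling induced by STAT5, went from 7.73 RPKM in the control to 20.8, 66.1, 80.7 and 132 RPKM with IL-2, and stayed between 10.3 and 16.3 RPKM with IL-21. Its ratio at 4 h was 7.82 (7.28 to 8.41).

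The other 16 of the 20 genes with the largest positive differences lay between 2.10 and 3.21. Akr1c18, which encodes a steroid-reducing enzyme (20 alpha-hydroxysteroid dehydrogenase), was at 19.8 RPKM with IL-2, 1.25 RPKM with IL-21 and 1.91 RPKM in the control. The cytokine genes Il13, Il24, Tnf, Il4 and Tnfsf11 were in this range and are described with the cytokines below. Fam46a, a gene for a poly(A) polymerase of the non-canonical kind, was at 34.6 against 3.81 RPKM, with the control at 15.2 RPKM between them. The myosin gene Myo6 was at 12.8 against 0.901 RPKM, the actin regulator gene Enah at 7.78 against 0.521 RPKM and the coronin gene Coro2a at 33.9 against 6.64 RPKM. Naf1, needed for the assembly of H/ACA ribonucleoproteins, was at 22.1 against 3.00 RPKM, the potassium channel gene Kcnk5 at 24.8 against 4.09 RPKM, and Cdk6, a kinase gene of the G1 phase, at 61.2 against 13.6 RPKM. Itih5, for an inter-alpha-trypsin inhibitor heavy chain, was at 14.1 against 2.22 RPKM and Fam19a3, for a small secreted protein, at 6.50 against 0.551 RPKM. Iigp1, which encodes an interferon-inducible GTPase, was at 51.8 against 10.6 RPKM, and here the control, at 32.6 RPKM, again lay between the cytokines.

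Bcl6 and Tcf7, the genes of a pair of transcription factors, were among the 20 largest negative differences. Bcl6 (NM_009744, minus strand of chromosome 16) encodes the repressor that directs follicular helper T cells. Its level was 4.14 RPKM in the control, 3.20, 0.743, 0.482 and 0.373 RPKM after 0.5, 2, 4 and 24 h of IL-2, and 2.82, 7.42, 9.20 and 10.4 RPKM after the same times of IL-21. From 2 h on, IL-2 libraries lay below the control and IL-21 libraries above it. At 4 h the level with IL-21 was 19.1 times that with IL-2 (14.8 to 24.95), from 1181 against 64 reads, and the difference was -2.78. Tcf7 (NM_009331, minus strand of chromosome 11) encodes TCF-1, a factor of naive, memory and follicular helper T cells. Its level was 313.02 RPKM in the control, 303, 118, 69.3 and 72.9 RPKM with IL-2, and 305, 222, 382 and 607 RPKM with IL-21. The difference of -2.45 at 4 h was made up of -2.16 against the control with IL-2 and 0.29 against it with IL-21.

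Socs3 (NM_007707, minus strand of chromosome 11), the suppressor of cytokine signalling induced by STAT3, was above the control with both cytokines. It stood at 26.1 RPKM in the control, at 153, 60.1, 63.6 and 44.0 RPKM with IL-2 in order of time and at 275, 235, 311 and 331 RPKM with IL-21. The ratio of IL-21 to IL-2 at 4 h was 4.88 (4.76 to 5.01). Malt1 (NM_172833, plus strand of chromosome 18) encodes a protease and scaffold between the antigen receptor and NF-kappaB. It was at 55.5 RPKM in the control, 52.0, 74.1, 23.7 and 20.5 RPKM with IL-2, and 63.7, 192, 135 and 76.1 RPKM with IL-21, so that at 4 h the control lay between the cytokines. Bcl2l11 (NM_207681, plus strand of chromosome 2), the gene of the death-promoting protein BIM and thus a counterpart of Bcl2, had a control level of 29.0 RPKM. Its 4 h levels were 7.79 RPKM with IL-2 and 34.8 RPKM with IL-21. Set against each other, Bcl2 was 6.45 times higher and Bcl2l11 4.47 times lower with IL-2 (4.23 to 4.73).

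The other 15 of the 20 genes with the largest negative differences lay between -2.84 and -1.92. Serpinb5, a gene of the serpin family, was at 0.588 RPKM with IL-2 and 10.4 RPKM with IL-21, and Hlx, a homeobox factor of Th1 cells, at 1.31 against 15.2 RPKM. For both of these the IL-2 level was near the control (0.817 and 1.42 RPKM). The same held for Sbno2, a transcriptional coregulator (14.5 against 77.0 RPKM, control 16.5), for the growth factor gene Tgfb3 (1.21 against 10.6 RPKM, control 1.69) and for the actin regulator gene Abi3 (4.03 against 23.7 RPKM, control 5.18). In another group the IL-2 level lay below the control. This group held Mxd1, a partner of MAX that opposes MYC (5.40 against 30.2 RPKM, control 18.7), Zfp36, which promotes the decay of messenger RNAs with AU-rich elements (12.7 against 62.3 RPKM, control 38.1), Trib2, a pseudokinase gene (7.16 against 42.8 RPKM, control 21.9), and Gramd3 (7.70 against 33.2 RPKM, control 54.1). Also among the 15 were Cxcr1, Tha1, Gm14005, Cacnb3 and Ly6c1, with Ly6c1, a surface antigen of memory and effector T cells, at 66.3 against 256 RPKM. Gm14005 is a non-coding transcript whose difference of -2.09 falls to -0.48 with its longest transcript, and since it is not known whether reads were counted by strand, reads of an overlapping gene on the other strand cannot be told apart from its own.

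**Figure D2:**
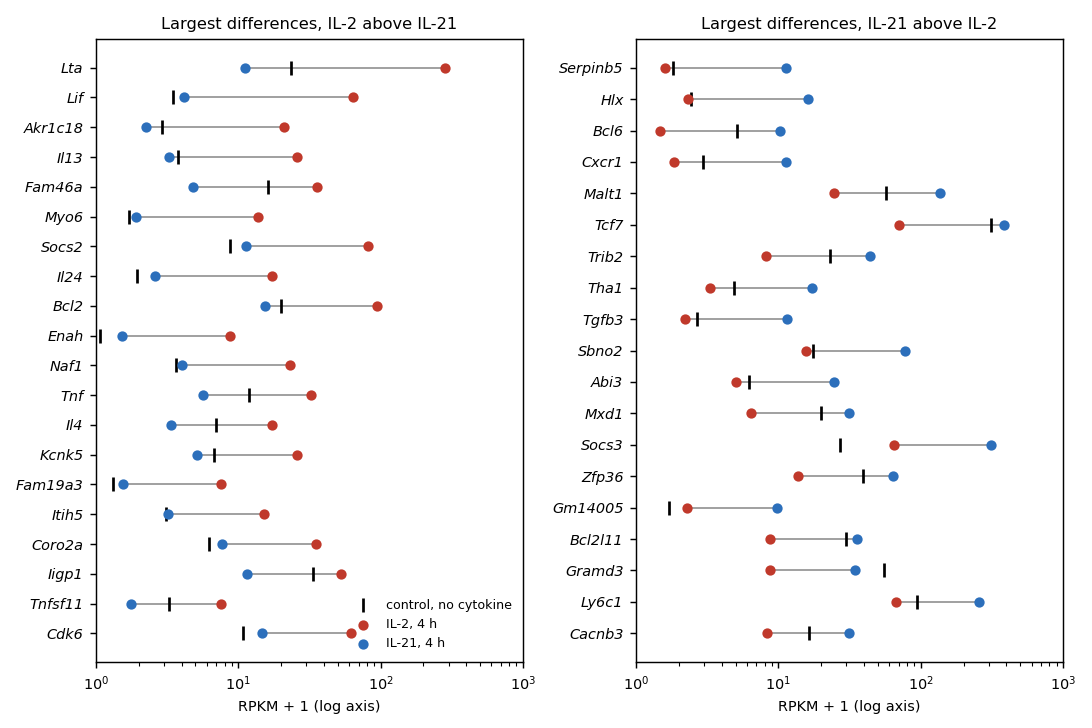
Levels of the 20 genes with the largest positive differences at 4 h (left) and of 19 of the 20 with the largest negative ones (right), as RPKM + 1 on a log axis, with IL-2 in red, IL-21 in blue and the control without cytokine as a black tick, 1 library each. On the left the tick mostly sits close to the blue point, as for Lif (2.48 RPKM in the control, 3.17 with IL-21), while on the right it is near the red point for genes such as Hlx and between both for genes such as Bcl6.

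STAT5 and STAT3 both recognise a short palindrome in DNA, the letters TTCNNNGAA. The 250 bases before the gene start were searched for it on both strands, in promoters that RefSeq gives for the mouse assembly GRCm38.p6; this build is not that of the deposited files (mm9), and promoters were matched by transcript accession, for 8783 of the 11043 genes tested. Of the 20 genes with the largest positive differences 16 had a promoter in the table, and the letters were found for 1 of them, Lta. Of the 20 with the largest negative differences 15 had one, and the letters were found for 4: Bcl6, Sbno2, Socs3 and Zfp36. A gene was counted if any of its starts had a match. The same share by gene was not taken over all genes tested. These counts thus cannot be set against the shares by window given below. Sbno2 promoters are not shown. Promoters of Lta, Socs3, Zfp36 and Bcl6 are shown as examples from both ends of the comparison, chosen because they hold a match. They are written 5′ to 3′ on the strand of the gene, the last base being the one before the gene start, with each match in capitals.
Lta, chr17:35205352-35205601, minus strand: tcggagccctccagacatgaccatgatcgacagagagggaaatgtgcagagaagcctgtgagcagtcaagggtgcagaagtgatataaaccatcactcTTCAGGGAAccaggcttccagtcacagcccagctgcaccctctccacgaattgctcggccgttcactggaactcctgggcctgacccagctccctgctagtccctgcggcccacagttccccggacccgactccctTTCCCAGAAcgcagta
Socs3, chr11:117969367-117969616, minus strand: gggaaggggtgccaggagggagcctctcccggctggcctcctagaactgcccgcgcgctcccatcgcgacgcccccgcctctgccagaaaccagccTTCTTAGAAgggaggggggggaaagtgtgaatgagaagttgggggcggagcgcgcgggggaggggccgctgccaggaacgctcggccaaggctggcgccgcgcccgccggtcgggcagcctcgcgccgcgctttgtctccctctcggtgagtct
Zfp36, chr7:28379229-28379478, minus strand: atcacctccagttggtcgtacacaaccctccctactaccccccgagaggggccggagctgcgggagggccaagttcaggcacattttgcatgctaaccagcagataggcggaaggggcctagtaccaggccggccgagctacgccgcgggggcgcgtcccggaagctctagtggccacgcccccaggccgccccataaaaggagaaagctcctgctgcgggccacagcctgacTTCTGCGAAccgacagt
Bcl6, chr16:23988853-23989102, minus strand: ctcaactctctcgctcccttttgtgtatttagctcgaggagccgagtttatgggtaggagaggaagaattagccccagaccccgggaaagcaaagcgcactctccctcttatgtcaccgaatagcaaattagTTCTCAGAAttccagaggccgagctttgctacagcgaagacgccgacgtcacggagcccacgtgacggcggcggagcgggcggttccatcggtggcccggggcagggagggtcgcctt

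In Lta the matches are TTCAGGGAA and TTCCCAGAA, which begin 152 and 16 bases before the start. In Socs3 the match TTCTTAGAA begins 154 bases before it, and in Zfp36 TTCTGCGAA begins 17 bases before it. In the Bcl6 window shown TTCTCAGAA begins 118 bases before the start, and another Bcl6 start in the table has TTCCTGGAA, TTCTGTGAA and TTCCGGGAA in its window. Over all promoters such matches were not rare. The letters TTCNNNGAA were in 7.02% of all 32851 windows, against 6.08% of 11115 windows of the genes tested, 8.13% of 246 windows of genes higher with IL-2 and 7.18% of 195 windows of genes lower with IL-2. For TTC and GAA with 4 bases between them, searched in the same way, the shares were 5.85%, 4.61%, 6.1% and 7.69% in the same order. A match describes letters only, and these windows cover none of the distant elements where STAT proteins also bind.

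Known target genes of the cytokines' main STAT proteins were set apart, in opposite directions. Of 24 STAT5 target genes 12 were at least 2-fold higher with IL-2 and 1, Prdm1, was lower, and the median difference was 0.97. Of 21 STAT3 target genes tested 0 were higher and 10 were lower, and the median was -0.89. The same shares over all genes are 2.23% and 1.67%, with a median near 0. These lists and those below were written with earlier results of these data known. Their counts beside all genes are thus description only. The STAT5 targets beyond Lta, Lif, Socs2, Bcl2 and Il24 included Osm, a neighbour of Lif on chromosome 11 and a cytokine gene of the same family, at 69.0 RPKM with IL-2, 16.2 RPKM with IL-21 and 10.2 RPKM in the control. STAT5 targets had a median of 1.02 above the control with IL-2 and of 0.21 with IL-21. STAT3 targets stood at -0.25 with IL-2 and 0.30 with IL-21. Pim1, a kinase gene that is on both lists, was at 204 against 321 RPKM, short of 2-fold; it was chosen after its value was seen, to show a gene that both lists claim.

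The STAT3 targets lower with IL-2 included Bcl6 and Socs3, the NF-kappaB cofactor gene Bcl3 (39.1 against 148 RPKM) and the receptor gene Il21r. Prdm1, the gene of the repressor Blimp-1 and an antagonist of Bcl6, is on both lists and was lower with IL-2 as well, at 2.45 against 8.28 RPKM with the control at 5.29 RPKM. Bcl6 and Prdm1 thus lay on the same side of this comparison. For Prdm1 the difference was -0.83 at 0.5 h, -1.87 at 2 h, -1.43 at 4 h and -0.50 at 24 h, while for Bcl6 it went from 0.14 to -2.27, -2.78 and -3.05.

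Among feedback inhibitors of the SOCS family, 2 of 8 were at least 2-fold higher with IL-2 and 1 was lower. Socs1 was at 195 RPKM with IL-2, 88.8 RPKM with IL-21 and 62.0 RPKM in the control, a ratio of 2.19 (2.11 to 2.27). Cish, also induced by STAT5, was at 207 against 123 RPKM, a ratio of 1.69 that stays under 2-fold, with the control at 149 RPKM between them. Socs2 and Socs3, described above, mark the ends of the family with differences of 2.85 and -2.27. The family median was 0.19.

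The receptor genes showed each cytokine library with more of the transcript of its own specific receptor chain. Il2ra, for the alpha chain of the IL-2 receptor, was at 433 RPKM with IL-2 and 187 RPKM with IL-21, and the control at 78.5 RPKM was below both. Il21r was at 226 RPKM with IL-21, 82.2 RPKM with IL-2 and 66.4 RPKM in the control, a ratio of 2.75 (2.69 to 2.82) in favour of IL-21. Il2rb, the beta chain shared with the IL-15 receptor, was at 300 against 177 RPKM with a difference of 0.76. Il2rg, the shared gamma chain, was at 236 against 277 RPKM with a difference of -0.23. Of the 8 receptor genes tested, Il2ra and Il21r alone passed 2-fold, and the median was -0.10.

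The signalling components themselves leaned lower with IL-2. Of 17 JAK-STAT genes 15 had a negative difference and 1, Stat5a, reached 2-fold, at 31.9 RPKM with IL-2, 64.8 RPKM with IL-21 and 35.0 RPKM in the control. Its difference of -1.002 is just past 2-fold and becomes -0.99, under it, with median-of-ratios scaling. Stat3 was at 51.8 against 97.0 RPKM and Stat5b at 34.6 against 47.0 RPKM, with differences of -0.89 and -0.43. The list median was -0.32. Stat5a, though it encodes a main STAT protein of IL-2, was thus near the control level with IL-2 and above it with IL-21.

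The largest differences of all were in cytokine genes. Of 21 tested, 10 were at least 2-fold higher with IL-2 and 1 was lower, and the median difference was 0.90. Csf1, for the macrophage growth factor M-CSF, was the lower one, at 1.16 against 6.52 RPKM; it is named here because it was the single exception, after its value was seen. Members that neighbour each other in the genome were higher together: Lta and Tnf on chromosome 17, Lif and Osm on chromosome 11, and Il13 and Il4 on chromosome 11. Tnf, for the inflammatory cytokine, was at 10.9 RPKM in the control, 44.8, 31.9, 31.3 and 22.4 RPKM with IL-2 and 11.3, 4.33, 4.60 and 5.04 RPKM with IL-21. Ltb, the third gene of the cluster with Lta and Tnf and chosen after its value was seen, was at 334 against 183 RPKM with a difference of 0.86, under 2-fold. Tnfsf11, the gene of RANK ligand, was at 6.54 against 0.756 RPKM.

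The Th2 genes formed the list with the highest median, 1.32. All 10 tested had a positive difference and 6 reached 2-fold, against 2.23% of all genes. Il13, an effector cytokine gene, was at 2.80 RPKM in the control, 7.34, 22.9, 24.9 and 20.5 RPKM with IL-2 and 3.29, 2.36, 2.25 and 3.98 RPKM with IL-21. Il4, the defining cytokine of the subset, had a control level of 5.97 RPKM and at 4 h stood at 16.3 RPKM with IL-2 and 2.37 RPKM with IL-21. In these files Il4 is represented by the non-coding transcript NR_027491 of 604 bases, the one with the highest mean level, so its RPKM is not that of the full messenger RNA. Gata3, the lineage regulator, was at 44.6 against 21.243 RPKM and the factor gene Irf4 at 128 against 41.4 RPKM. For Gata3 both libraries lay below the control at 55.3 RPKM, and its difference of 1.04 goes to 0.95, under 2-fold, with the upper quartile as the scale. The receptor gene Ccr4 was at 89.5 against 20.3 RPKM, and Il24 at 16.4 against 1.61 RPKM. Il5, which lies in one cluster with Il4 and Il13, was at 1.11 against 0.134 RPKM from 69 and 8 reads, a difference of 0.90; it was chosen after its value was seen. Against the control the list median was 0.78 with IL-2 and -0.55 with IL-21.

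Treg genes leaned the same way without their lineage regulator. Of 15, 6 were at least 2-fold higher with IL-2 and 0 lower, with a median of 0.65. The 6 were Ikzf4, for the Ikaros-family factor Eos (17.0 against 4.00 RPKM), the costimulatory receptor gene Tnfrsf9 (25.2 against 6.98 RPKM), Gpr83 (13.8 against 4.64 RPKM), Lrrc32, for the TGF-beta anchor GARP (41.1 against 15.6 RPKM), Il2ra, and the ectonucleotidase gene Nt5e (2.65 against 0.736 RPKM). Foxp3, the regulator that defines these cells, was at 5.93 against 5.02 RPKM with the control at 4.35 RPKM; it was chosen after its value was seen. For Tnfrsf9 the IL-2 level was the control level (25.5 RPKM) and the IL-21 level was below it.

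Th1 and cytotoxic genes were split, with more on the IL-21 side. Of 20 tested, 2 were at least 2-fold higher with IL-2 and 6 lower, and the median was -0.47. Gzma, for the protease granzyme A, was at 149 RPKM with IL-2, 450 RPKM with IL-21 and 191 RPKM in the control. Il18rap, for a chain of the IL-18 receptor, was at 1.22 against 5.73 RPKM, and Il12rb2, for the inducible chain of the IL-12 receptor, at 37.8 against 109 RPKM. For Il12rb2 the IL-2 level was below the control, at 83.1 RPKM. Ifng, the defining Th1 cytokine gene, went the other way at 5.39 against 1.55 RPKM, a ratio of 3.48 (2.68 to 4.58) from 263 and 73 reads. Eomes, a factor of cytotoxic cells, was also higher with IL-2, at 1.61 against 0.200 RPKM. Tbx21, the Th1 regulator, was at 10.7 against 16.6 RPKM, a difference of -0.59. For Ifng the sign changed by 24 h, when the difference was -0.97.

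The follicular helper (Tfh) list held members lower with IL-2 and none higher by 2-fold. Of 12 Tfh genes tested 4 were lower: Bcl6, Tcf7, the checkpoint receptor gene Pdcd1 (2.81 against 6.82 RPKM) and the follicular homing receptor gene Cxcr5 (2.02 against 5.14 RPKM). The median was -0.08, close to that of all genes, so the list as a whole was not shifted. Batf, the gene of an AP-1 family factor and on the STAT3 target list, was at 39.4 against 85.9 RPKM. Il21 itself, a Tfh gene, was at 12.2 against 11.4 RPKM; it was chosen after its value was seen. Of 18 costimulatory and checkpoint receptor genes Pdcd1 alone passed 2-fold.

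Genes of resting T cells leaned lower with IL-2. Of 20 naive and quiescence genes 16 had a negative difference, 3 reached 2-fold and 0 were higher by 2-fold, with a median of -0.46. Besides Tcf7 these were Pik3ip1, for an inhibitor of PI3 kinase (9.32 against 30.7 RPKM, control 50.2), and Btg2, an antiproliferative gene (12.7 against 32.9 RPKM, control 35.5). The list was below the control with both cytokines, by medians of -0.91 with IL-2 and -0.56 with IL-21. Of 17 apoptosis regulators Bcl2 and Bcl2l1 (45.7 against 21.9 RPKM), both protective, were at least 2-fold higher with IL-2 and Bcl2l11, which promotes death, was lower. The median of that list was -0.03. Upper quartile scaling takes Bcl2l1 from 1.03 to 0.95, under 2-fold.

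Early response and feedback genes were split within lists as well as between them. Of 22 immediate early genes, Myc was at least 2-fold higher with IL-2, at 107 against 35.8 RPKM with the control at 65.1 RPKM between them. Jun (7.35 against 21.5 RPKM), Junb (113 against 284 RPKM), Ier3 (5.06 against 19.4 RPKM) and Btg2 were lower. Jun and Junb encode subunits of AP-1. Other AP-1 genes of the list, chosen after their values were seen, were under 2-fold and on both sides. Their differences were 0.42 for Fos, 0.60 for Fosl1, -0.01 for Fosb, -0.28 for Jund and -0.40 for Fosl2. Of 15 NF-kappaB subunit and feedback genes, Traf1 (35.5 against 93.5 RPKM), Tnfaip3 (7.08 against 16.9 RPKM) and Bcl3 were lower, and Nfkbiz (11.2 against 4.58 RPKM) was higher. Tnfaip3, the gene of the inhibitor A20, was far below the control of 75.6 RPKM with both cytokines. Of 13 genes of dual-specificity phosphatases and Sprouty proteins, inhibitors of the MAP kinase pathway, Dusp6 (21.9 against 5.34 RPKM), Spry1 (7.79 against 1.54 RPKM) and Spred1 (4.52 against 1.23 RPKM) were higher and 0 were lower. The medians of these lists were 0.21, -0.32 and 0.26, and the first of them turns to -0.16 over genes with at least 5 RPKM in 1 of the 2 libraries. Of 24 genes of antigen receptor signalling, Malt1 was lower and Rasgrp1, which activates RAS, was higher, at 112 against 33.3 RPKM.

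Within the MYC network the activator and an antagonist lay on opposite sides. Myc was 2.99 times higher with IL-2 (2.87 to 3.11) and Mxd1 5.58 times lower (5.22 to 5.97). Mxi1, another MAX partner that opposes MYC, was nevertheless higher with IL-2, at 12.7 against 5.64 RPKM, a difference of 1.05 that goes to 0.97 with upper quartile scaling. The remaining 7 of the 10 tested members were under 2-fold, and the median was 0.16.

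**Figure D3:**
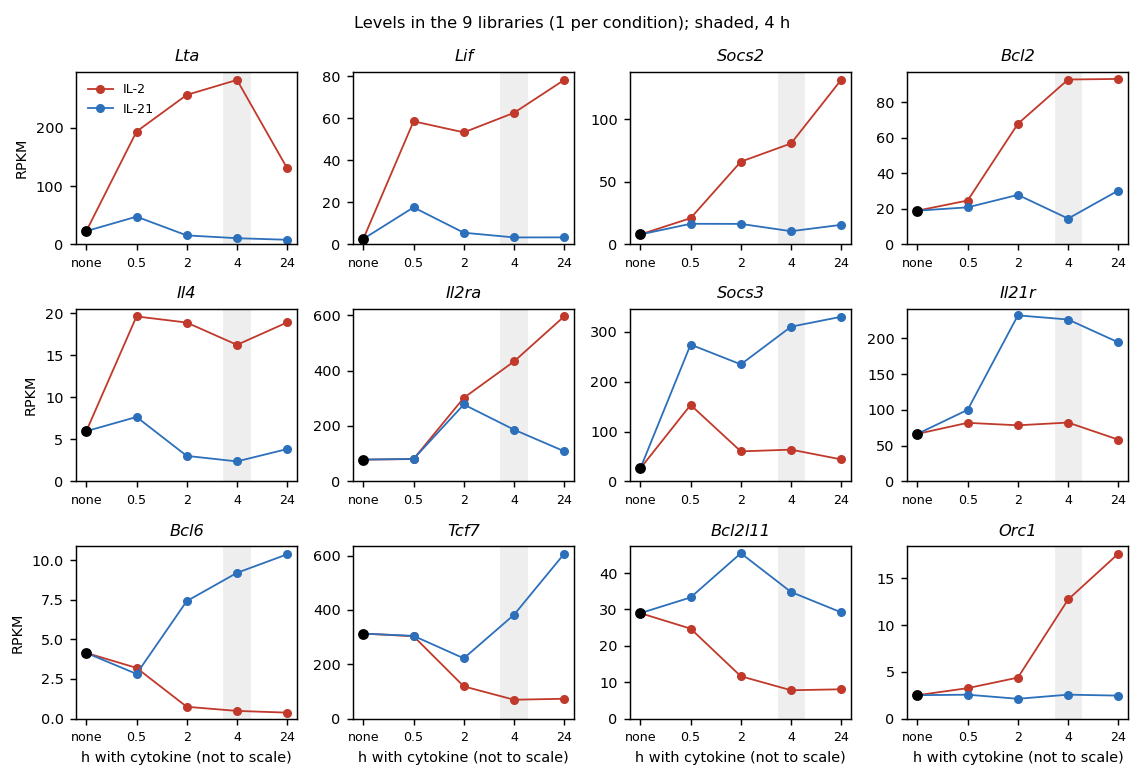
Levels of 12 genes in RPKM (y axis, from 0) in the control (none) and after 0.5, 2, 4 and 24 h with IL-2 (red) or IL-21 (blue), 1 library per point, with 4 h shaded and the time axis not to scale. Lta and Lif are apart by 0.5 h, Bcl2, Socs2, Bcl6 and Bcl2l11 by 2 h, and Tcf7, Il2ra and Orc1 chiefly from 4 h.

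Genes of ribosome production leaned higher with IL-2, and the genes of the ribosomal proteins did not. Of 30 ribosome biogenesis genes 29 had a positive difference, 9 reached 2-fold and 0 were lower by 2-fold, with a median of 0.80. Gnl3, for the nucleolar protein nucleostemin, was at 69.9 against 26.3 RPKM. Polr1b, for a subunit of RNA polymerase I, was at 23.3 against 9.46 RPKM, and Nop56, for a core protein of the box C/D particles that modify ribosomal RNA, at 171 against 79.3 RPKM. Rrs1, Rrp9 and Nop58 were higher by 1.23, 1.11 and 1.09. The list stood above the control with both cytokines, by medians of 1.73 with IL-2 and 0.85 with IL-21. All 36 genes of cytosolic ribosomal proteins had a small negative difference, from -0.33 for Rps14 to -0.07, with a median of -0.21 and none at 2-fold. The precursor of the ribosomal RNA itself, Rn45s, was at 771 RPKM with IL-2 and 1460 RPKM with IL-21. It is a transcript without a poly(A) tail, and the kit's treatment of ribosomal RNA is not given in the sources used here.

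Biosynthetic genes followed the ribosome biogenesis genes with smaller differences. Of 28 genes of serine, one-carbon and nucleotide synthesis 25 had a positive difference and 4 reached 2-fold, with a median of 0.60. They were Shmt1 (25.03 against 9.33 RPKM), Ctps, for CTP synthase (26.7 against 10.99 RPKM), Ppat, for the first enzyme of purine synthesis (28.5 against 12.0 RPKM), and Phgdh, for the first enzyme of serine synthesis (73.0 against 34.7 RPKM). With upper quartile scaling Phgdh goes from 1.05 to 0.97, under 2-fold. Of 13 amino acid stress genes, Slc7a5, an amino acid transporter gene, was at 42.1 against 18.7 RPKM and Phgdh passed with it, with a median of 0.49. Translation initiation factor genes (29), aminoacyl-tRNA synthetase genes (20) and chaperone genes (30) had medians of 0.33, 0.32 and 0.34. In the first 2 of these lists none reached 2-fold, and in the last Pdia4, for an enzyme of protein folding, did at 68.9 against 31.5 RPKM.

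Genes of energy metabolism were hardly apart at 4 h. Of 22 glycolysis genes, Hk2, for hexokinase 2 (21.5 against 9.61 RPKM), and Slc16a1, for a lactate transporter (26.9 against 11.1 RPKM), passed 2-fold and the median was 0.02. Oxidative phosphorylation genes (32) had a median of -0.04, genes of mitochondrial ribosomal proteins (28) of 0.18, proteasome genes (35) of 0.08, and cholesterol and fatty acid synthesis genes (27) of 0.23. In the last 4 of these lists none reached 2-fold. At 24 h, in other libraries, 15 of the 22 glycolysis genes and 17 of the 27 cholesterol and fatty acid synthesis genes were at least 2-fold higher with IL-2, where 9.84% of all genes were. With the upper quartile in place of the library total as the scale, the medians of the glycolysis and proteasome lists fall below 0.

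Genes of DNA replication leaned higher with IL-2 at 4 h, few of them by 2-fold, and genes of mitosis did not. Of 39 replication genes 38 had a positive difference, 4 reached 2-fold and 0 were lower by 2-fold, with a median of 0.63. Orc1, for the largest subunit of the origin recognition complex, was at 2.50 RPKM in the control, 3.25, 4.38, 12.8 and 17.7 RPKM with IL-2 and 2.55, 2.11, 2.56 and 2.45 RPKM with IL-21. With IL-21 Orc1 stayed close to the control at every time. The helicase genes Mcm2 and Mcm3 were at 70.3 against 31.7 RPKM and 91.3 against 44.7 RPKM, and the loading factor gene Cdc6 at 13.7 against 6.15 RPKM. With the upper quartile as the scale Mcm3 (1.02 to 0.93) and Cdc6 (1.04 to 0.97) fall under 2-fold, and Orc1 and Mcm2 stay past it. Of 30 mitosis genes none reached 2-fold at 4 h and the median was -0.14, with Cdc25b, a phosphatase gene of mitotic entry, lowest at 20.2 against 28.9 RPKM. In the 24 h libraries 37 of the 39 replication genes and 29 of the 30 mitosis genes were at least 2-fold higher with IL-2, against 9.84% of all genes at that time.

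Regulators of the step into S phase stood between those lists by their median alone. In either direction 5 of 19 passed 2-fold, against 4 of 39 replication genes, 0 of 30 mitosis genes and 3.89% of all genes. Of 19 tested, Cdk6, the cyclin genes Ccnd2 (203 against 68.7 RPKM) and Ccne2 (10.1 against 3.37 RPKM) and the phosphatase gene Cdc25a (22.6 against 9.69 RPKM) were higher with IL-2. Cdkn2d, which encodes an inhibitor of CDK4 and CDK6, was lower, at 11.4 RPKM with IL-2, 41.9 RPKM with IL-21 and 22.6 RPKM in the control. The median was 0.34. Tfrc, for the transferrin receptor of iron uptake, is often used as a housekeeping gene and was the one of 15 such genes past 2-fold, at 63.9 against 20.3 RPKM. The median of the housekeeping genes was 0.10.

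**Figure D4:**
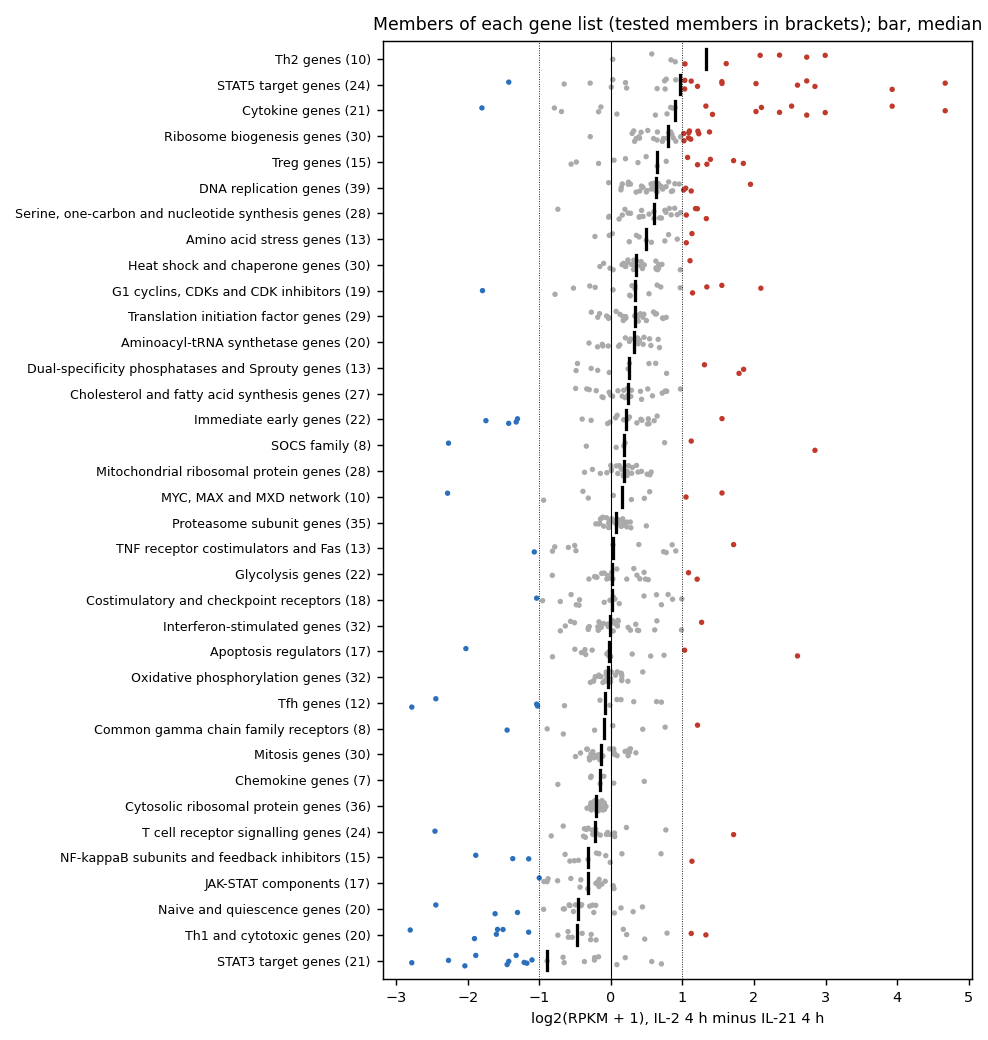
Difference at 4 h (x axis, log2 of RPKM + 1, IL-2 minus IL-21) of each tested member of the gene lists (rows, number tested in brackets), with members past 2-fold in red or blue and the list median as a black bar. The Th2 list lies farthest right, with a median of 1.32, and the STAT3 target list farthest left, at -0.89; cytosolic ribosomal protein and mitosis genes stay within the dotted 2-fold lines.

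The differences at 4 h were compared with those at the other times, which come from other libraries. Few genes were apart by 2-fold at 0.5 h: 24 higher with IL-2 (0.217% of genes tested) and 32 lower (0.29%). At 2 h there were 71 higher (0.643%) and 76 lower (0.688%), and at 24 h 1087 higher (9.84%) and 670 lower (6.07%). Of the 246 genes higher at 4 h, 59 were past 2-fold the same way at 2 h, which is 24.0% of the 4 h list and 83.1% of the 2 h list. At 24 h 152 of them were, which is 61.8% of the 4 h list and 14.0% of the 24 h list. Of the 184 genes lower at 4 h, 58 were past 2-fold the same way at 2 h (31.5% and 76.3%) and 136 at 24 h (73.9% and 20.3%). At 0.5 h the shared genes were 10 higher and 3 lower.

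The direction alone was shared more widely. Of the genes higher at 4 h 90.7% had a positive difference at 2 h and 93.1% at 24 h, where 54.2% and 54.0% of all genes did. Of the genes lower at 4 h 98.4% had a negative difference at 2 h and 98.4% at 24 h, where 45.8% and 46.0% of all genes did. At 0.5 h the share on the higher side, 58.1%, was below the 64.1% of all genes. On the lower side it was 52.7%, above the 35.9% of all genes. Of the higher genes 35 were past 2-fold in the same direction at both 2 and 24 h, 24 at 2 h and not at 24 h, 117 at 24 h and not at 2 h, and 70 at neither. Of the lower genes these numbers were 46, 12, 90 and 36.

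**Figure D5:**
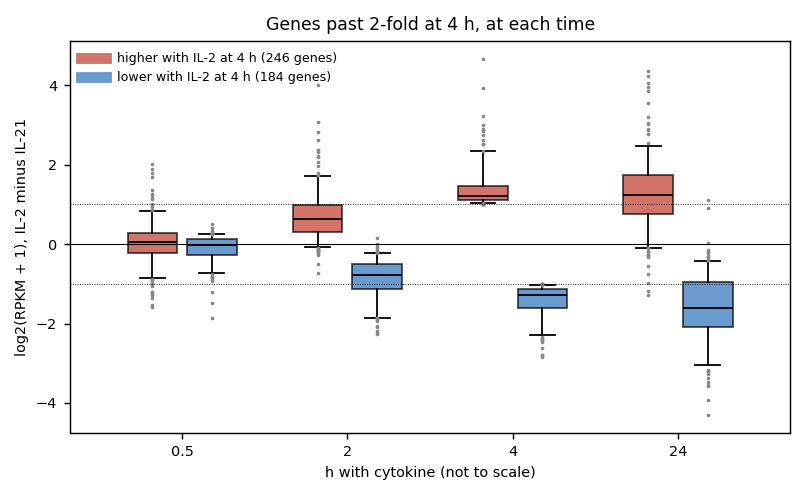
Difference between the cytokines (y axis, log2 of RPKM + 1, IL-2 minus IL-21) at each time for the 246 genes higher (red) and the 184 genes lower (blue) with IL-2 at 4 h; boxes span the quartiles, the line is the median, whiskers reach the 5th and 95th percentiles and dots lie beyond. The red medians go from 0.06 at 0.5 h to 0.63 at 2 h and 1.23 at 24 h and the blue medians from -0.04 to -0.78 and -1.60; the 4 h boxes lie beyond the dotted 2-fold lines because the genes were chosen at that time.

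The genes counted at 4 h that were past 2-fold in the same direction at neither 2 nor 24 h number 106, and 11 of them were 2-fold apart at another time. They were ranked by how far the difference at 4 h exceeded those at 2 and 24 h, a ranking made after the values were seen. Iigp1 led it, with a difference of 2.19 at 4 h and of -0.99, 0.22 and -0.09 at 0.5, 2 and 24 h. Its level was between 31.4 and 63.4 RPKM in 8 of the 9 libraries, the control among them, and 10.6 RPKM after 4 h of IL-21, so the 4 h IL-21 library was the one that stood apart. Igtp, another gene of this family of interferon-inducible GTPases, had 4 h levels of 334 RPKM with IL-2 and 138 RPKM with IL-21, and lay between 213 and 379 RPKM in the other 7 libraries. The 32 interferon-stimulated genes as a list, which does not hold Iigp1, were not shifted. Of its members Igtp alone reached 2-fold, 16 were higher and 16 lower, and the median was -0.02. Irgm1, Gbp2 and Gbp3 on the list, chosen after their values were seen, had differences of 0.64, -0.71 and 0.0048. The list does not hold every such gene. Gbp11, left out of it and chosen in the same way, had a difference of 1.21 at 4 h, 0.34 at 2 h and 0.01 at 24 h. Prkca, a protein kinase C gene chosen after its values were seen, stood apart through the IL-2 library instead, with 17.6 RPKM after 4 h of IL-2 against 7.12 RPKM with IL-21 and 6.88 to 11.9 RPKM in the other 7 libraries.

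Transcript length and chromosome were looked at for the counted genes. The median transcript was 2891 bases for the genes higher with IL-2, 2675 bases for those lower and 2639 bases for all genes tested. The median difference rose across 4 bins of transcript length from -0.06 in the shortest to 0.04 in the longest. In order of length the bins held 37, 61, 91 and 57 of the genes higher with IL-2 and 43, 48, 45 and 48 of those lower, and the part of length in these counts was not tested. By chromosome, the share of genes past 2-fold in either direction ran from 1.55% on chromosome 5 to 5.88% on chromosome 10, with 3.89% over all genes.

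Markers of other cells were read in the same libraries. CD4 T cell markers were high in both, with Cd4 at 114 and 120 RPKM and Cd3e at 144 and 172 RPKM with IL-2 and IL-21, and the 9 markers summed to 943 and 1240 RPKM (control 1538). The 11 B cell markers summed to 51.9 RPKM with IL-2 and 44.6 RPKM with IL-21 (control 61.7), with 0 past 2-fold and Ms4a1, for CD20, at 15.2 and 8.39 RPKM. The 10 macrophage markers summed to 4.86 and 9.59 RPKM, with 7 under 1 RPKM in both, and Fcgr3, for an Fc receptor, was at 0.823 and 1.97 RPKM. The 9 dendritic cell markers summed to 157 and 172 RPKM, mostly Cd74 (113 and 128 RPKM), a gene B cells also express, with 6 under 1 RPKM in both. The 2 CD8 markers summed to 7.51 and 8.68 RPKM, and the 7 erythroid markers to 1.46 and 2.04 RPKM, with 1 at 0 reads in both. The 7 NK cell markers summed to 153 and 453 RPKM, of which Gzma, also made by activated T cells, gave 149 and 450 RPKM, while the defining markers Ncr1 (0.135 and 0.0525 RPKM) and Klrb1c (0.0849 and 0.0976 RPKM) were near 0. The part of these markers in the results was not tested. Of the RNAs that stay in the nucleus, Neat1 was at 84.5 RPKM with IL-2 and 187 RPKM with IL-21, and Malat1 was nearly level at 126 and 114 RPKM. The nuclear and non-polyadenylated list leaned lower with IL-2. Of its 8 tested members 6 had a negative and 2 a positive difference, with a median of -0.34. With Rn45s, the 10 RNAs of the nuclear and non-polyadenylated list summed to 1102 and 1854 RPKM at 4 h and, the other way round, to 2299 and 1586 RPKM at 2 h. Their part in the results was not tested.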

How the data were processed

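The deposited files give, per the file headers, reads and RPKM for every RefSeq transcript beside its length and strand. The authors' counts are whole reads, and the deposited RPKM values are those reads scaled to transcript length and 1 total per library. The submitters' processing notes name TopHat2 2.0.11, Bowtie 0.12.9, HOMER, SAMtools and the build mm9 without roles. The sources used here give neither the counting program nor its use of strand. Per the labels' protocols, libraries came from total RNA with a stranded kit. Totals of the 9 libraries ran from 29.5 to 44.3 M reads.

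Of 29543 transcripts, 760 that were under 200 bases or carried the name of a small RNA were left out. Each of 22462 symbols kept the transcript with the highest mean RPKM, so genes with near-identical copies or overlaps are uncertain. Differences used a pseudocount of 1 RPKM and genes at 1 RPKM or more in 1 of 9 libraries (11043). Counts of genes use 2-fold. Ratios carry exact 95% conditional binomial intervals of the reads, which hold for counting error alone, as amplified reads without molecular identifiers may repeat a molecule. A gene without reads has a floor of 3 reads, 0.0742 and 0.0768 RPKM per 1 kb here. With 1 library per condition no test was run. The difference function was tested on simulated data. Alternatives changed the pseudocount, filter, fold, transcript and scaling (edgeR 4.0.16 TMM, DESeq2 1.42.0 median of ratios, upper quartile). Python 3.11.15, pandas 2.3.3 and scipy 1.17.1 were used.

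Lists are described by counts and medians beside those of all genes. The genes named are the 20 largest differences each way, in each of 48 lists up to 6 members past 2-fold by size (or the largest difference), and 16 set genes; others are marked or, for cell markers, nuclear RNAs and genes whose sign turned between times, were chosen after their values were seen, and some that the rule takes in are not reported here. The comparison and the lists were chosen with earlier results of these data known.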

Additional observations from a re-analysis of the deposited data

Results flagged for a closer look

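For 12 genes the difference between the cytokines reached 2-fold at 4 h and 2-fold with the opposite sign at another time. The change between times was not tested, since each value rests on 1 library a side. Differences are log2(RPKM + 1), IL-2 minus IL-21.

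In 9 of these genes the reversal was between 0.5 and 4 h. Gm13157 went from -1.54 at 0.5 h to 1.31 at 4 h, Gm13212 from -1.57 to 1.14 and Gm13139 from -1.29 to 1.04; all 3 are predicted genes on chromosome 4. The levels of Gm13157 serve as an example. Gm13157 was at 7.39 RPKM with IL-2 and 23.4 RPKM with IL-21 at 0.5 h, and at 18.9 and 7.06 RPKM at 4 h, with the control at 10.6 RPKM. Gm14295 went from -1.22 to 1.19, Gm17066 from -1.20 to 1.35, Gm5141 from -1.01 to 1.05 and Zfp808, named as a zinc finger gene, from -1.26 to 1.24. Gt(ROSA)26Sor, a ubiquitously expressed non-coding locus, went from -1.35 to 1.49, with 4.71 and 13.6 RPKM at 0.5 h and 13.4 and 4.11 RPKM at 4 h. Gm4951 went from -1.06 to 1.67, at 3.56 against 0.435 RPKM at 4 h. By the signs alone, the lower library in each of the 9 was IL-2 at 0.5 h and IL-21 at 4 h. The control lay below the higher library at both times in each of the 9. For Gt(ROSA)26Sor the control was at 5.41 RPKM. Whether reads of similar gene copies were shared among the predicted genes was not tested.

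In the other 3 the reversal was between 4 and 24 h. Art2b, an ADP-ribosyltransferase gene of T cells, went from 1.01 to -1.27, with 6.06 and 2.50 RPKM at 4 h and, later, 2.67 and 7.86 RPKM; the control was at 16.3 RPKM. Itgb6, an integrin beta chain gene, went from 1.34 to -1.18, and at 4 h was at 3.25 against 0.679 RPKM. Armcx6, a gene of the armadillo repeat family, went the other way, from -1.60 to 1.12, with 1.83 and 7.58 RPKM at 4 h and 5.47 and 1.97 RPKM at 24 h.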

How the results depend on the processing

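The counts depend most on the threshold and the pseudocount. With a pseudocount of 0.1 RPKM 423 genes were at least 2-fold higher with IL-2 and 341 lower. All 246 and 184 of the main count are among them by construction, since a smaller pseudocount can only enlarge a difference. At 1.5-fold there were 1063 and 672, and at 3-fold 49 and 49. The other settings stayed within 1.5 times. There were 219 and 155 genes with at least 5 RPKM in 1 of the 2 libraries, 243 and 183 with TMM, and 247 and 179 with median-of-ratios. The longest transcript gave 244 and 180, and short RNAs kept gave 282 and 195. Counts were 246 and 184 with no filter or, chosen after seeing the data, with 1 RPKM in 1 of the 2 libraries. These 2 filters could not change the counts, since with 1 RPKM added a 2-fold difference needs at least 1 RPKM in the higher library. Upper quartile scaling moved the median gene by -0.07 and gave 201 and 222, so that 47.5% of counted genes were higher in place of 57.2%. Under it 6 of the 105 named genes past 2-fold were no longer past it. This was 1 with median-of-ratios, 1 with the longest transcript, and 0 with TMM or with short RNAs kept. The smaller pseudocount and the filters also gave 0, which was fixed in advance. A filter leaves the difference of a gene as it is, and named genes that the 5 RPKM filter left out were not counted as lost. The scaling also turned the sign of the medians, all near 0, of the TNF receptor, checkpoint, glycolysis, proteasome and CD8 marker lists. Of the list medians over all settings 408 moved by less than 0.2 or not at all and 21 by more; the immediate early median became -0.16 with the filter at 5 RPKM, the Th2 median ran from 1.04 to 1.88 and the cytokine median from 0.81 to 1.45. No library could be left out with 1 per condition. No paired analysis was possible because each condition has 1 library. Genes under the floor of 3 reads cannot be compared at this depth.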
